A study of Mus musculus with 4 samples.

Results

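Transcripts of the axon survival genes Sarm1, Nmnat1, Nmnat2, Nmnat3 and Nampt were measured by RNA-seq in wild type (WT) and REST-/- mouse embryonic stem cells (ESCs). These 5 genes were chosen by name from the 26301 genes of the count table. All 5 were in the table and all 5 were among the 15444 genes with enough counts to be tested. Sarm1 and Nampt are listed there under the older symbols A830091I15Rik and Pbef1, and were matched by their Entrez identifiers, 237868 and 59027. REST is a zinc finger repressor that binds the RE1 element of neuronal genes. The WT cells are the ESC line N6 and the cells without REST are the ESC line N8, with 2 biological replicates of each. The medium of both lines held serum and LIF. Both were kept on a fibroblast feeder layer and were weaned from it on gelatin ahead of the RNA preparation. Each genotype is thus 1 line, and the loss of REST cannot be told apart from other differences between N6 and N8. The libraries held 30953863 and 27061056 counts in WT cells and 25461270 and 22293966 in REST-/- cells.

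NAD is made from nicotinamide in a pair of steps. Nampt makes nicotinamide mononucleotide (NMN) from nicotinamide, and an NMN adenylyltransferase then makes NAD from NMN. The adenylyltransferase enzymes differ by place: Nmnat1 is nuclear, Nmnat2 is carried on Golgi-derived vesicles and supplied to axons, and Nmnat3 is mitochondrial. Nmnat2 is short-lived, and when its supply to a cut axon stops, NMN builds up and NAD falls. Sarm1 senses this change and destroys NAD with the NADase activity of its TIR domain, and the axon degenerates. Nmnat2 thus stands on the survival side of the pathway and Sarm1 on the side of axon loss, while Nampt supplies the NMN that Nmnat2 uses. ESCs have no axons, so the values below are transcript levels outside the setting in which these genes are best known.

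To ask which of these genes hold a sequence like RE1, the element was searched as its left arm TTCAGCACC and its right arm GGACAGCGC, 9 letters each, with 2 bases between them, on both strands of the mouse build NCBIM37 (mm9). A match had at least 15 of the 18 letters, inside the gene or within 20 kb of an annotated start site. Sarm1 was the 1 of the 5 genes with such a match, at 16 of 18 letters. Among all 22771 genes with a position, 7.83% held a match of at least 15 letters and 2.47% held one of at least 16. With the arms 7 to 10 bases apart, a spacing added after the data were seen, Nmnat2 held a match at 17 of 18 letters, which 0.413% of all genes held. The matches are shown because Sarm1 and Nmnat2 are also the members with the larger expression differences. Capitals mark the letters shared with the left and right arms, and 20 bases are given on each side.
Sarm1, chr11:78309583-78309602, minus strand: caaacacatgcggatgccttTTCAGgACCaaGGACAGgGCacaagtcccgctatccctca
Nmnat2, chr1:154803531-154803557, minus strand: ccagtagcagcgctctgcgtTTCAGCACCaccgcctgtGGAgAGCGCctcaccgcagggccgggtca
Sarm1 lies on the minus strand at chr11:78285832-78311256, and its match lies on the same strand in an intron, 1368 bases downstream of the nearest annotated start and 1664 bases downstream of the first. Nmnat2 lies on the plus strand at chr1:154802231-154966390, and its match lies on the opposite strand in an intron, 1313 bases downstream of the annotated start. Within 2 kb of a start site, a window also added after the data were seen, 0.588% of all genes held a match of at least 16 letters with 2 bases between the arms, and 0.193% one of at least 17 with 7 to 10 bases. Both matches fall inside regions that the study's supplement lists as occupied by REST in ESCs. That list was read in part, and none of the other matches described below was in the part read. Regions were looked up only at matches, and the share of all genes with such a region was not computed. The other matches were weaker. Nmnat3 had 14 letters at 2 bases and 15 at the wider spacing, as did further places in Sarm1 and Nmnat2, and 37.8% and 17.2% of all genes reach those scores. No match of these kinds was found for Nmnat1 or Nampt. A match is a run of letters, and the counts do not show what binds there.

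**Figure D1:**
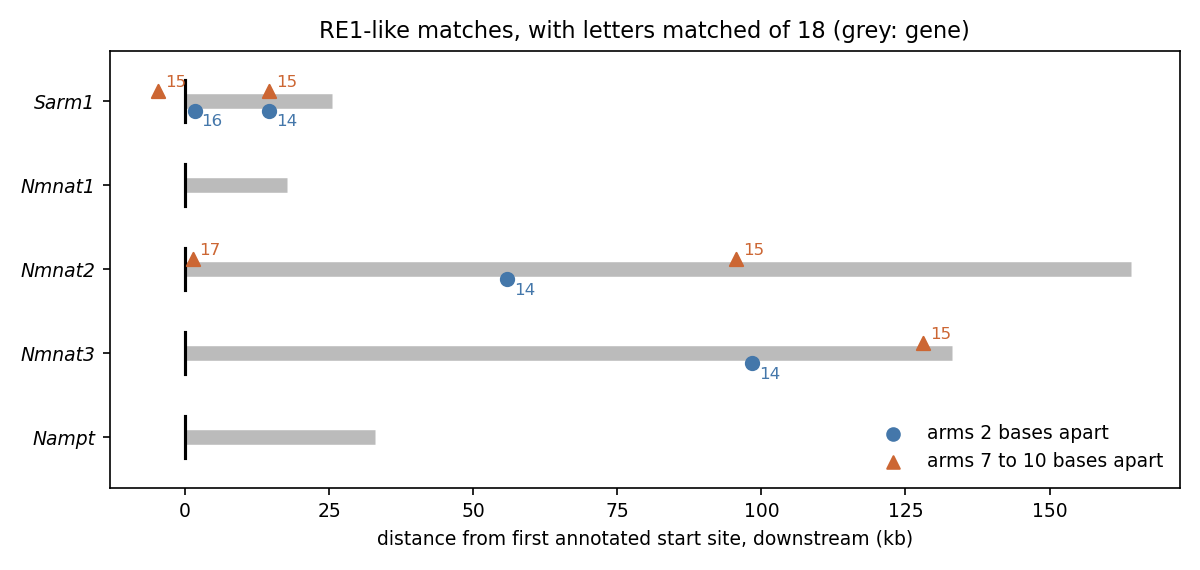
RE1-like matches along the 5 genes, drawn as grey bars from the first annotated start site (horizontal axis, kb downstream). Circles are matches with 2 bases between the arms, triangles those with 7 to 10, and each number is the letters matched of 18. The match of Sarm1 at 16 letters and that of Nmnat2 at 17 letters lie 1664 and 1313 bases downstream of the start, and the remaining matches have 14 or 15 letters.

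Before the members, the libraries were checked against their labels. Rest itself had 7908 and 6233 counts in WT cells and 4244 and 3890 in REST-/- cells, a log2 fold change of -0.52 (SE 0.13; edgeR quasi-likelihood test, adjusted p = 0.526). Counts summed over a gene cannot tell which exons of Rest remain. Pou5f1, the pluripotency factor Oct4, had a mean of 687 ± 24.8 CPM (counts per 1000000 after scaling for depth; SD, n = 2) in WT cells and 726 ± 35.0 in REST-/- cells, so both lines carried the defining ESC marker. The summed level of 8 pluripotency markers was 4489 and 4298 CPM in WT libraries and 3736 and 3813 in REST-/- libraries, with Zfp42 at a log2 fold change of -1.36 (adjusted p = 0.179). The sum of 8 neuron markers was 241 and 261 CPM against 331 and 363. Elavl3 and Nefl rose most, from means of 21 and 28.4 CPM in WT cells to 66.6 and 69.7 in REST-/- cells. Tubb3, the most abundant of them, had means of 170 and 171 CPM, and Map2 18.2 and 18.5. The sum of 7 primitive endoderm markers was 15.7 and 20.6 CPM against 44.9 and 33.5. Both sums were higher in REST-/- libraries, and 4 of the 7 tested genes of each list lay higher in both REST-/- libraries than in both WT libraries, beside 16.5% of all genes tested. The 8 fibroblast markers summed to 29.9 and 21.5 CPM in WT libraries and to 95.5 and 20.6 in REST-/- libraries, with Lum at 0 in all 4, so REST-/- replicate 1 stood apart. The sum of 5 macrophage markers ran from 15.7 to 26.2 CPM and overlapped between the genotypes. In bulk RNA, fewer cells of a type and less RNA per cell cannot be told apart, and the part of these markers in the results below was not tested. An adjusted p under 0.05 was reached by 9 of 15444 genes (0.0583%), 8 higher and 1 lower in REST-/- cells. At an unadjusted p under 0.05 there were 1036 genes (6.71%), and the median log2 fold change over all genes tested was -0.0047.

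Of the 5 members, Sarm1 and Nmnat2 had higher transcript levels in both REST-/- libraries than in both WT libraries, while Nmnat1, Nmnat3 and Nampt had log2 fold changes near 0 or with intervals wide on both sides of it. Over all genes tested, both REST-/- libraries lay above both WT libraries in 16.5% and below them in 15.4%. None of the 5 passed the adjusted threshold in edgeR's quasi-likelihood test fitted without a replicate block, the fit used throughout unless another is named. At an unadjusted p under 0.05 there were 2 of 5, Sarm1 and Nmnat2. With DESeq2, which called 1.54% of genes, and with edgeR's exact test at tag-wise dispersion, which called 1.77%, 1 of 5 was past an adjusted p of 0.05, and it was Sarm1 in both. A quasi-likelihood fit with the replicate number as a block called 17% of genes, Sarm1 and Nmnat2 among them. The labels, however, do not link libraries of the same number.

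Sarm1, the NADase that executes axon degeneration, had 372 and 303 counts in WT cells and 666 and 519 in REST-/- cells. Scaled for depth these were 12 and 11.3 CPM in WT cells and 25.8 and 23.4 CPM in REST-/- cells. Both REST-/- libraries lay above both WT libraries, and each pair of replicates lay close together. The means were 11.7 ± 0.497 and 24.6 ± 1.66 CPM (SD, n = 2 each). The log2 fold change was 1.08 (SE 0.20, 95% interval 0.56 to 1.60), which is 2.11-fold with an interval of 1.47 to 3.02. The unadjusted p was 0.00366 and the adjusted p over all genes tested was 0.32 (edgeR quasi-likelihood test). Of the genes tested, 3.13% had a higher log2 fold change. The call differed between tests: the adjusted p was 0.0146 with DESeq2, 0.0337 with the exact test at tag-wise dispersion and 0.234 with that test at a common dispersion. With the replicate number as a block, a link that the labels do not give, it was 0.000602 (edgeR quasi-likelihood test). Leaving out each library in turn gave log2 fold changes of 1.01 to 1.14, with adjusted p from 0.391 to 1 (edgeR quasi-likelihood test). The value was 1.01 without REST-/- replicate 1, the library with the high fibroblast markers.

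**Figure D2:**
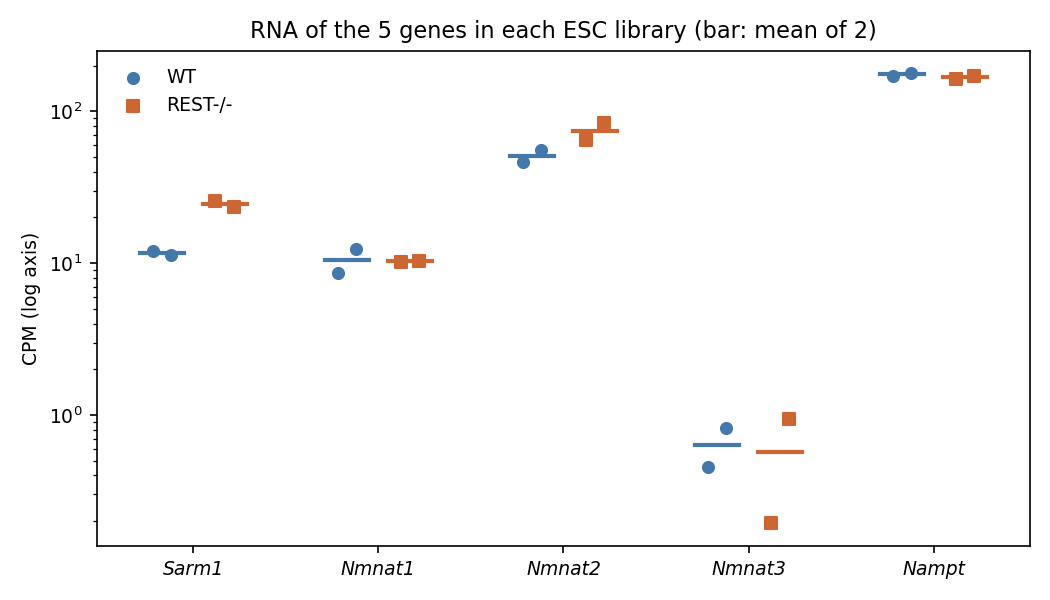
Level of each of the 5 genes in CPM (vertical axis, log scale) in the 2 WT and 2 REST-/- libraries, 1 point a library. The Sarm1 points separate into 11.3 to 12 CPM in WT cells and 23.4 to 25.8 CPM in REST-/- cells, while the Nmnat1 and Nmnat3 points overlap.

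Nmnat2, the adenylyltransferase that protects axons and opposes Sarm1, had 1444 and 1478 counts in WT cells, and in REST-/- cells 1677 and 1846. These were 46.6 and 55.2 CPM in WT cells and 64.9 and 83.3 CPM in REST-/- cells. The genotypes did not overlap, but the REST-/- replicates lay further apart than those of Sarm1. The means were 50.9 ± 6.04 and 74.1 ± 13.0 CPM (SD, n = 2 each). The log2 fold change was 0.54 (SE 0.20, 95% interval 0.02 to 1.06), or 1.46-fold with an interval of 1.01 to 2.09. The unadjusted p was 0.0446 and the adjusted p was 0.733 (edgeR quasi-likelihood test), and 9.35% of the genes tested had a higher log2 fold change. The unadjusted p was 0.0635 with DESeq2, and 0.0496 and 0.178 with the exact test at tag-wise and common dispersion. It was 0.191 without WT replicate 1, 0.0505 without WT replicate 2, 0.0469 without REST-/- replicate 1 and 0.323 without REST-/- replicate 2 (edgeR quasi-likelihood test). Leaving out each library in turn gave 0.35 to 0.72 on the log2 scale, the lowest without REST-/- replicate 2 and the highest without REST-/- replicate 1. With the replicate number as a block, a link that the labels do not give, the adjusted p was 0.00172 (edgeR quasi-likelihood test).

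Nmnat1, the nuclear adenylyltransferase (chr4:148841681-148859311, minus strand), had 268 and 331 counts in WT cells and 263 and 231 in REST-/- cells. The WT libraries, at 8.66 and 12.4 CPM, lay on either side of the REST-/- libraries, at 10.2 and 10.4 CPM. The log2 fold change was -0.028 (SE 0.28, 95% interval -0.77 to 0.71), so this fit excluded no rise or fall within that interval. Its sign turned, to 0.25, without WT replicate 2. The annotation places Gm13097 over part of Nmnat1 on the other strand, and whether the counting used strand is not given in the sources used here, so reads of the overlap cannot be assigned to one of them.

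Nmnat3, the mitochondrial adenylyltransferase (chr9:98187854-98320946, plus strand), was the lowest member, with 14 and 22 counts in WT cells and 5 and 21 in REST-/- cells. In CPM these were 0.452 and 0.821 against 0.194 and 0.948, and the REST-/- pair spanned the WT pair. The log2 fold change was -0.17 (SE 0.84, 95% interval -2.41 to 2.06), an interval that leaves the direction unknown at this depth. It was 0.58 without REST-/- replicate 1 and 0.31 without WT replicate 2.

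Nampt, the rate-limiting enzyme that recycles nicotinamide (chr12:33505200-33538234, plus strand), was the most abundant member, with 5338 and 4757 counts in WT cells and 4234 and 3813 in REST-/- cells. At 172 and 178 CPM in WT cells and 164 and 172 CPM in REST-/- cells, the lists of values meet at 172 after rounding, with the REST-/- libraries just below the WT ones. The log2 fold change was -0.059 (SE 0.12, 95% interval -0.38 to 0.26; edgeR quasi-likelihood test, adjusted p = 1), the narrowest interval of the 5. The lincRNA Gdap10 overlaps Nampt on the same strand, and how the counting treated the shared bases is not given in the sources used here.

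**Figure D3:**
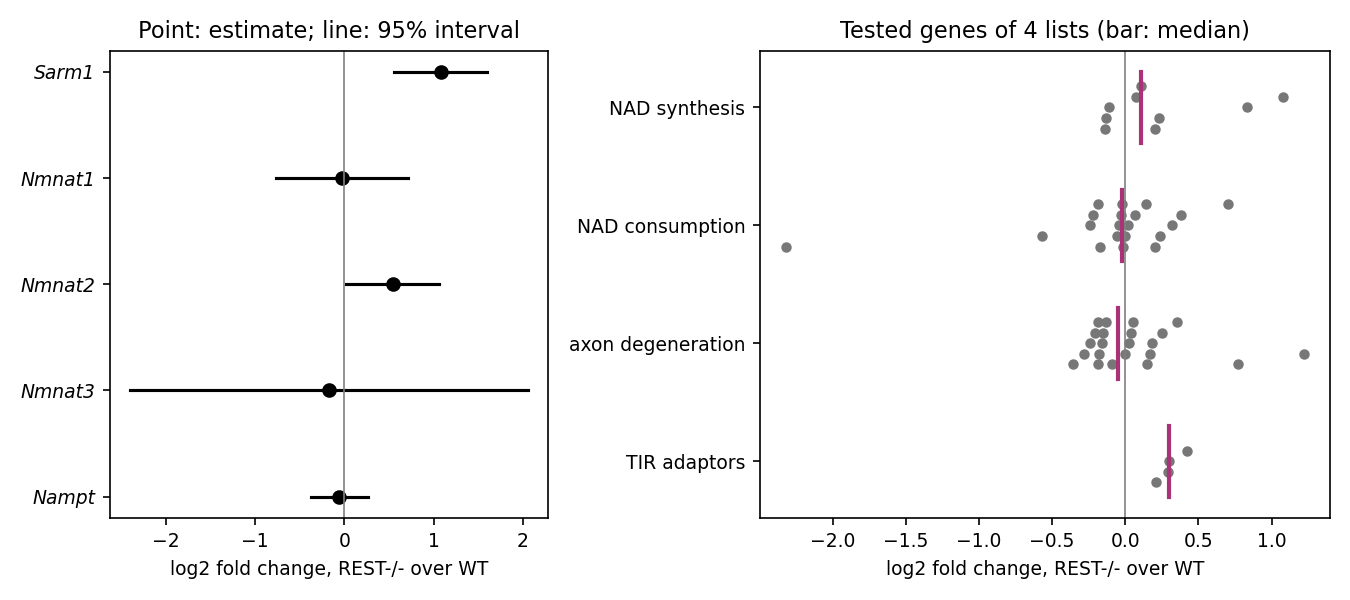
Log2 fold change of each member, REST-/- over WT (horizontal axis), with its 95% interval from the edgeR quasi-likelihood fit. The intervals of Sarm1, 0.56 to 1.60, and Nmnat2, 0.02 to 1.06, lie above 0, and those of Nmnat1, Nmnat3 and Nampt include 0.

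To compare the genes with each other, CPM was divided by the merged exon length of each gene in kb. In WT cells the order of these per-length levels was Nampt, Nmnat2, Nmnat1, Sarm1 and Nmnat3. Nampt stood at 37.9 and 39.1 CPM per kb, Nmnat2 at 10.3 and 12.2, Nmnat1 at 2.85 and 4.07, Sarm1 at 2.13 and 2.01, and Nmnat3 at 0.0890 and 0.162. None of these neighbours in the order overlapped in WT libraries, but the Nmnat1 replicates lay further apart than the gap between Nmnat1 and Sarm1, so their order there does not exceed the spread. In REST-/- cells Sarm1, at 4.58 and 4.16 CPM per kb, stood above Nmnat1, at 3.35 and 3.43, by more than either pair of replicates differed. The per-length ratio of Sarm1 to Nmnat1 was 0.749 and 0.494 in WT libraries and 1.37 and 1.21 in REST-/- libraries. With 2 libraries a genotype, an exact permutation test cannot reach a p under 0.05, so these ratios are given without one.

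Among the adenylyltransferase genes, Nmnat2 made up most of the transcripts per length, with Nmnat1 second and Nmnat3 last in every library. The share of Nmnat3 was 0.215% to 0.983% with merged exon lengths, and 0.491% to 2.21% with the length of the longest transcript. The share of Nmnat2 in the summed per-length level of the Nmnat genes was 77.8% and 74.3% in WT libraries and 80.9% and 83.6% in REST-/- libraries. The share of Nmnat1 was 21.5% and 24.8% against 18.9% and 15.6%. The summed level itself was 13.3 and 16.4 CPM per kb in WT cells and 17.7 and 22.0 in REST-/- cells. Sarm1 stood at 0.161 and 0.122 of that sum in WT libraries and at 0.258 and 0.189 in REST-/- libraries, without overlap. Against Nmnat2 alone its per-length ratio was 0.207 and 0.165 in WT libraries and 0.319 and 0.226 in REST-/- libraries. The ratio of Nampt to Nmnat2 was 3.68 and 3.20 against 2.51 and 2.05. All 3 of these ratios were separated by genotype in these 4 libraries. For both Sarm1 ratios, however, the gap between genotypes was smaller than the difference within either pair of replicates, so that separation does not exceed the spread. For Nampt to Nmnat2 the gap was larger than either difference. The ratios share genes and are not independent of each other.

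**Figure D4:**
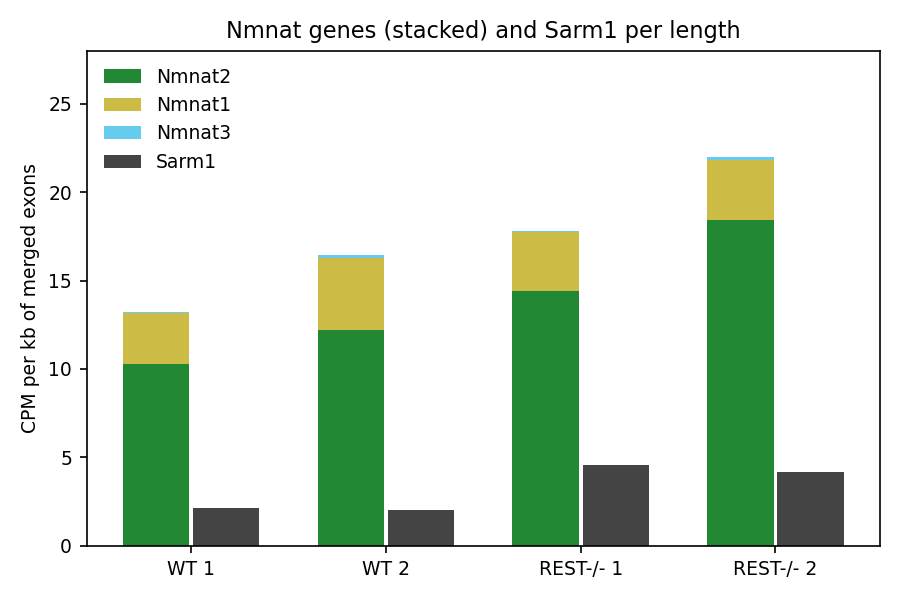
Per-length level in CPM per kb of merged exons (vertical axis) of Nmnat2, Nmnat1 and Nmnat3, stacked, and of Sarm1 beside them, in each library. The stack runs from 13.3 and 16.4 in WT libraries to 17.7 and 22.0 in REST-/- libraries, and the Sarm1 bars from 2.01 and 2.13 to 4.16 and 4.58.

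The difference of Sarm1 was compared with those of the genes beside it, to see whether a whole stretch of the chromosome differed. Within 100 kb of Sarm1 there are 12 other genes of the count table, of which 7 were tested, and their log2 fold changes ran from -0.087 for Tmem97 to 0.18 for Ift20. Slc46a1, the folate transporter gene whose end lies 385 bases from Sarm1, had 270 and 230 counts against 216 and 187 (-0.043, SE 0.23). Tmem199 stood at -0.013, Poldip2 at 0.07, Tnfaip1 at 0.043 and Nlk at 0.085. The untested neighbours were Foxn1, Slc13a2, Slc13a2os, Sebox and Vtn, and none had more than 11 counts in a library. Vtn, the vitronectin gene whose start lies 1337 bases from Sarm1, had 3, 4, 4 and 8 counts. None of these 7 tested neighbours had an adjusted p under 0.05 (edgeR quasi-likelihood test), and their intervals all included 0. No gene of the annotation overlaps Sarm1 or Nmnat2. A BLAST search for long matches to the coding sequences of the 5 members, at 90% identity or more, found none elsewhere in the mm9 genome. Short matches and the untranslated parts of the transcripts were outside that search.

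**Figure D5:**
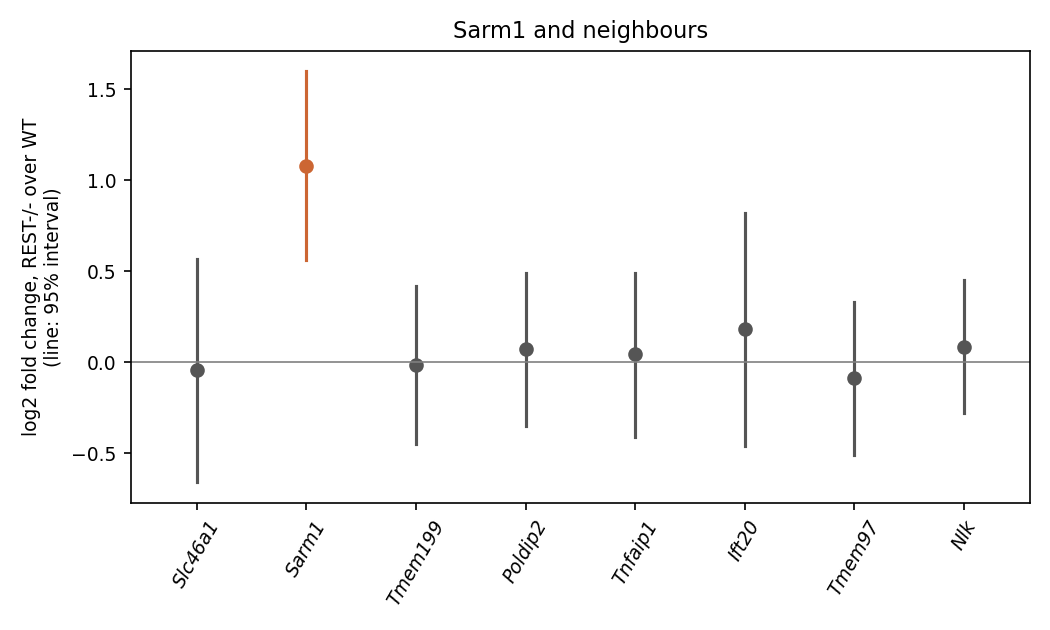
Log2 fold change, REST-/- over WT (vertical axis), of Sarm1 and of the tested genes within 100 kb, in chromosomal order, with 95% intervals. Sarm1 stands at 1.08 and its neighbours between -0.087 and 0.18.

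The rest of the pathway was read from gene lists. Of 15 other genes of NAD synthesis and its side branches 9 were tested, and 0 had an adjusted p under 0.05 by edgeR's quasi-likelihood test. Their median log2 fold change was 0.11, beside -0.0047 over all genes tested, and 1 had an unadjusted p under 0.05, beside 6.71% of all genes. This gene was Naprt, the enzyme that starts NAD synthesis from nicotinic acid. Naprt had 1138 and 1134 counts in WT cells and 1644 and 1716 in REST-/- cells, a log2 fold change of 0.83 (SE 0.18; adjusted p = 0.434). Nadk, the kinase that makes NADP from NAD, had 191 and 189 CPM against 195 and 204 (0.072, SE 0.12). Kynu, an enzyme of the tryptophan route, was low, with 8 and 17 counts against 31 and 15 (1.08, SE 0.63). Nmrk2, Tdo2, Ido1, Kmo, Haao and Acmsd had too few counts to be tested.

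Of 20 other genes linked to the use of NAD or nicotinamide all were tested, and 0 were called by edgeR's quasi-likelihood test. Their median log2 fold change was -0.019. At an unadjusted p under 0.05 there was 1, beside 6.71% of all genes tested. It was Nnmt, which methylates nicotinamide and so draws on the substrate of Nampt. Nnmt had 32 and 41 counts in WT cells and 5 and 7 in REST-/- cells, a log2 fold change of -2.32 (SE 0.51; adjusted p = 0.439). The abundant NAD users stood close to 0: Parp1, the poly(ADP-ribose) polymerase of DNA repair, had a log2 fold change of -0.17 (SE 0.21), and Tnks2, a tankyrase, one of -0.013 (SE 0.12).

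Of 22 genes of axon degeneration, which hold the DLK and JNK kinases that act with Sarm1, the ubiquitin ligase that removes Nmnat2, the calpains and the caspases, all were tested and 0 were called by edgeR's quasi-likelihood test. The median log2 fold change was -0.048, with 4 genes higher and 4 lower in both REST-/- libraries than in both WT libraries, beside 16.5% and 15.4% of all genes. At an unadjusted p under 0.05 there were 2, both higher, Atf3 and Capn2, beside 6.71% of all genes tested. Atf3, a transcription factor of the injury response, had 128 and 187 counts against 287 and 326 (1.22, SE 0.37; adjusted p = 0.654). Capn2, a calpain, had 1699 and 2117 counts against 2831 and 2625 (0.77, SE 0.22), and was chosen after its value was seen. Skp1a, a part of the ligase that removes Nmnat2, stood at -0.24 (SE 0.20). The other listed parts of that ligase, Fbxo45 and Mycbp2, stood at 0.35 (SE 0.17) and 0.17 (SE 0.39), and were added after their values were seen. Bax, a mitochondrial death factor, stood at -0.0043 (SE 0.12). The 4 other TIR adaptors, relatives of Sarm1 in innate immune signaling, had log2 fold changes of 0.21 to 0.42 with a median of 0.29. All 4 were higher in both REST-/- libraries, beside 16.5% of all genes, and 0 had an unadjusted p under 0.05. Myd88 stood at 0.29 (SE 0.20) and Tirap at 0.30 (SE 0.25).

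Genes whose pattern over the 4 libraries was near that of Sarm1 were found by the distance between log2(CPM + 0.5) values centred on each gene's mean. Tagap1, with 233 and 203 counts in WT cells and 461 and 357 in REST-/- cells, stood at a distance of 0.0977 and had a log2 fold change of 1.17 (SE 0.22; edgeR quasi-likelihood test, adjusted p = 0.341). Flg, Sprr2a3 and Trim34b stood at distances of 0.0722 to 0.0956, with 0 or 1 counts in each WT library and 10 to 16 in each REST-/- library. These 3 are near Sarm1 on a scale to which 0.5 CPM was added, and their fold changes are not given because their WT counts lie under the floor of 3.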

How the data were processed

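RNA-seq libraries of WT (N6) and REST-/- (N8) ESCs, 2 of each, were compared. The deposited values are raw counts for each Entrez gene, made by the authors with Subread and featureCounts on mm9 per the labels, without normalization; versions, annotation and strand setting are not given in the sources used here. The total counts were 22293966 to 30953863 a library, and 368 rows without an identifier or values were left out. Symbols came from the table and from RefSeq (GRCm38.p6, names only; 24191 matched), and positions from GENCODE M1 on NCBIM37 (22771 placed). The test was edgeR 4.0.16 (R 4.3.3) quasi-likelihood without a block, with TMM, filterByExpr, a prior count of 0.125 and Benjamini-Hochberg adjustment over all genes tested. DESeq2 1.42.0, edgeR's exact tests, other scalings, other filters, a replicate block and leaving out each library were the alternatives. Scripts were tested on simulated data. The p-values measure the spread between 2 libraries of 1 line, and a count of 0 allows up to 3, or 0.0969 to 0.135 CPM a library, for counting error only.

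Named were all members, Rest, the genes within 100 kb of Sarm1 or Nmnat2, the 5 genes nearest to Sarm1, and, of each pathway list, the 2 most abundant, those called and those with an absolute log2 fold change of at least 1 without overlap. The marker genes, Capn2, Fbxo45 and Mycbp2 fall outside that rule. Some genes that the rule names, and the comparison of Nmnat2 with the genes beside it, are not reported here. The members and lists were chosen with earlier results of these data known. REST regions of the study's supplement were read in part.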

Additional observations from a re-analysis of the deposited data

How the results depend on the processing

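The number of genes called moved with the test and the filter. Beside 9 genes with the quasi-likelihood test, 53 were called without a filter on low counts and 3 with at least 10 counts in every library. DESeq2 called 238 (180 higher and 58 lower), the exact test called 274 at tag-wise and 343 at common dispersion, and leaving out 1 library gave 60 to 113, where the lone library is assumed to vary like the others. Of 14 alternatives for each member, or 13 for Nmnat3, which has under 10 counts in 1 library, Nampt kept its sign and its side of the threshold in all. Sarm1 passed the threshold in 3, with log2 fold changes of 1.07 by DESeq2, 1.08 by the exact test with tag-wise dispersion and 1.08 with the replicate block, and its adjusted p ran from 0.000602 to 1. Leaving out libraries gave Nmnat1 log2 fold changes of -0.27 to 0.25 and Nmnat3 of -1.69 to 0.58, with reversals to 0.25 (Nmnat1) and 0.31 (Nmnat3) without WT replicate 2 and to 0.58 (Nmnat3) without REST-/- replicate 1. Lengths of the longest transcript put Nmnat2 at 72.8% and Nmnat3 at 1.87% of the summed Nmnat level in WT cells, and at 79.7% and 1.21% in REST-/- cells. With 14 letters, or with the arms 7 to 10 bases apart, 3 members held an RE1-like match instead of 1. Where the construction of an alternative does not show it, the cause was not tested.

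A fit with the replicate number as a block called 2621 genes, 1308 higher and 1313 lower, and Sarm1 (1.08, adjusted p = 0.000602) and Nmnat2 (0.54, adjusted p = 0.00172) passed its threshold by edgeR's quasi-likelihood test. The labels give no link between libraries of the same number, and the 2 genotypes offer 2 pairs, whose deviations correlated at 0.807 over 15444 genes. Counting depth limits Nmnat3 most, at 5 to 22 counts a library.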
